A study of Homo sapiens with 54 samples.

Results

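The transcriptional response to olaparib and cisplatin (CDDP) given together was compared with the sum of the responses to each drug alone in parental SUM1315 cells. The 12 libraries used were 3 each of untreated control, 8 µM olaparib, 4 µM CDDP, and 8 µM olaparib with 4 µM CDDP, out of 54 libraries in the series. For every gene the departure from additivity was the log2 difference between the combination and CDDP minus the log2 difference between olaparib and control. At 0 the fold changes of both drugs multiplied, a positive departure put the combination above that product, and a negative departure put it below. The question was whether the transcriptome of cells given both drugs can be read from the single-drug arms.

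SUM1315 is a BRCA1 mutant triple negative breast cancer (TNBC) cell line, grown in DMEM/F12 with fetal bovine serum and treated overnight. The study states that SUM1315, like its other TNBC lines, expresses mutant p53. The series also held a 2 µM CDDP arm with and without olaparib, the BRCA1 wild-type TNBC line MDA-MB-468, and olaparib-resistant (OlaR) derivatives of both lines. Each arm was 1 cell line with 3 libraries, and no source used here says that these came from separate cultures, so p-values measure the spread between libraries, which may be technical. In bulk RNA, fewer cells expressing a gene and less RNA per cell cannot be told apart.

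Olaparib blocks the catalytic site of the poly(ADP-ribose) polymerases PARP1 and PARP2 and holds them on damaged DNA, where the trapped enzymes obstruct replication forks. CDDP forms adducts and crosslinks on purines that stall DNA and RNA polymerases and are removed by nucleotide excision, Fanconi and homologous recombination repair. BRCA1 acts in homologous recombination, which is why both drugs are used against tumours that have lost it.

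Values are read numbers from the 3′ ends of transcripts, adjusted by the authors to 1 common library size, so that 1 unit is close to 1 read. The 12 libraries held 5420890 to 7157852 reads in genes. VIM, the intermediate filament of mesenchymal cells, averaged 11227 to 13004 in the 4 groups, while the epithelial adhesion gene CDH1 had at most 1 read and EPCAM at most 5 in any library. The receptor genes ESR1, PGR and ERBB2 summed to 29 to 62.1. The basal markers KRT5, KRT14, KRT17 and TP63 were read too, nearly all of it from KRT17 and TP63. They summed to 1983 to 2103 in control, 1226 to 1318 under olaparib, 1124 to 1251 under CDDP and 1184 to 1401 under both. The epithelial markers EPCAM, CDH1, KRT8, KRT18 and KRT19 summed to 371 to 397 in control, 313 to 358 under olaparib, 559 to 689 under CDDP and 303 to 363 under both, nearly all of it from KRT8 and KRT18. Of the markers for other cells, PTPRC, CD68 and ALB had at most 17 reads, but COL1A1 and PECAM1 were read in every library, and the 5 together summed to 607 to 1006. The part of these markers in the results was not tested.

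The control libraries stood apart from all treated ones, and the departure from additivity uses them in every gene. At an equal depth of 4977284 reads, 16894 to 17323 genes had at least 1 read in the control libraries against 14577 to 15830 in the other 15 parental SUM1315 libraries. Histone genes took 0.105% to 0.113% of the reads in control and 0.13% to 0.265% elsewhere. Control replicate 3 also differed from its fellows, where the chi-square divided by its degrees of freedom was 15.2 and 20.11, against 3.592 between control replicates 1 and 2. Olaparib replicate 3, also part of every departure, gave 8.715 and 8.729, against 2.902 between olaparib replicates 1 and 2. Between replicates 2 and 3 of 2 µM CDDP it was 22.07. A drug effect shared by all treated arms and a difference of the control cultures cannot be told apart. Each drug added to the other, and the comparison of both CDDP doses, use no control library.

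**Figure D1:**
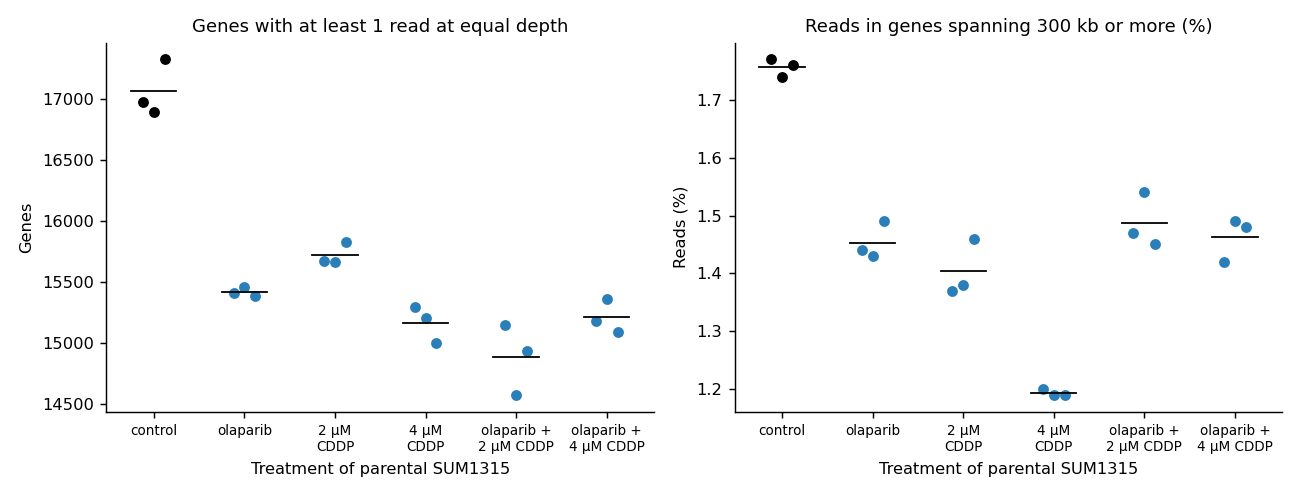
Genes with at least 1 read after thinning every library to the same depth (left) and the percentage of reads in genes spanning 300 kb or more (right) for the 18 parental SUM1315 libraries. Points are libraries, bars are group means, and neither axis starts at 0; the 3 control libraries lie above all others in both panels.

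Among 13133 genes tested, 2827 departed from additivity (limma, adjusted p at or under 0.05), which is 21.5%. The combination lay below the product of the single-drug changes in 1524 genes (11.6%) and above it in 1303 genes (9.92%). A departure of at least 1 on the log2 scale was reached by 528 of the former and 532 of the latter. In most of the 2827 genes the departure was opposite in sign to the change under each drug alone. As background for all counts that follow, CDDP alone changed 43.9% of the 13133 genes (22.2% rose, 21.7% fell) and olaparib alone changed 36% (18.9% rose, 17.1% fell). CDDP on top of olaparib raised 4.35% and lowered 4.09%, and olaparib on top of CDDP raised 6.32% and lowered 6.52%. CDDP alone was above control in 1515 of the 1524 genes that fell short of the product, and below control in 1273 of the 1303 that exceeded it. These counts share the control and CDDP libraries with the departure and are a description only. In 1979 of the 2827 genes (70%) both drugs alone passed the test in the same direction, opposite to the departure, and in 0 both passed it in the direction of the departure.

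Over the 2827 called genes the median absolute sum of both single-drug changes was 1.54 on the log2 scale, and that of the combination was 0.67. The same genes had a median absolute change of 0.84 for CDDP alone and 0.21 when CDDP was added to olaparib. For olaparib the median was 0.69 alone and 0.25 when it was added to CDDP. The genes were called on the difference between these paired changes, so the gaps between the medians follow in part from that choice. These medians are a description only. Across all 13133 genes, a change of 1 log2 unit by CDDP alone went with 0.215 when CDDP was added to olaparib, by least squares over genes and between arms that share no library. The matching slope for olaparib was 0.129. Genes are not independent replicates, so neither slope has a p-value. Noise in the single-drug changes lowers such a slope, and only those changes contain the control libraries. The size of this effect was not tested.

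**Figure D2:**
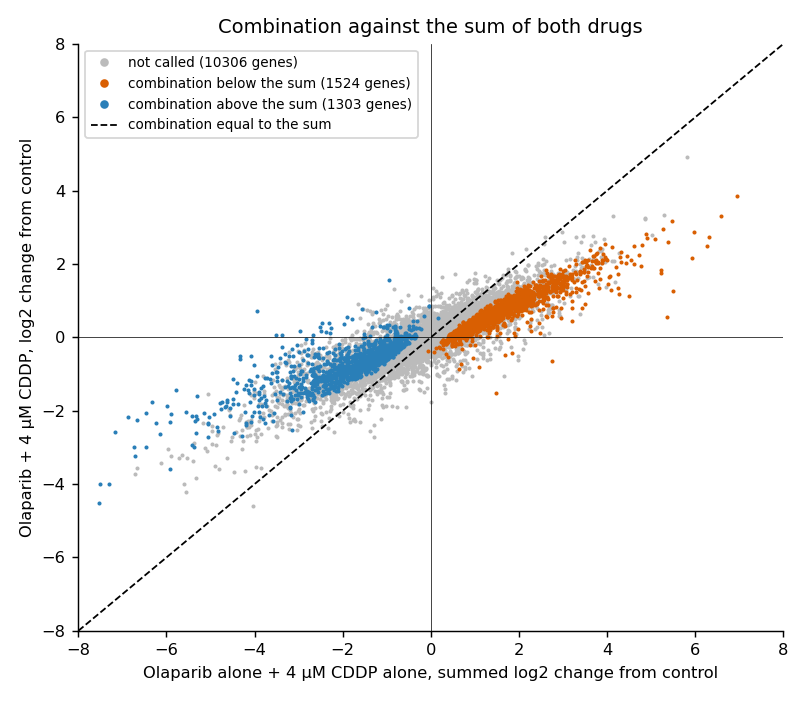
Log2 change from control under the combination (vertical axis) against the sum of the log2 changes under olaparib and under 4 µM CDDP (horizontal axis) for 13133 genes in SUM1315. Orange points are the 1524 genes below and blue points the 1303 genes above the dashed line of additivity; most orange points have a positive sum and most blue points a negative one, and the axes share the control libraries.

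The most common pattern was a plateau. In 1535 of the 2827 genes (54.3%), both drugs alone moved the gene in the same direction and neither drug moved it further past the test when added to the other. Both drugs raised 923 of these and both lowered 612. The departure on which these genes were called holds both single-drug changes with a minus sign, so the plateau share follows in part from that choice. A missed test does not show that the second drug had no effect. Without control replicate 3 the plateau held 1087 of 2421 called genes, against 1355 to 1592 without any other library of the 4 groups. In 730 genes (25.8%) olaparib did change the gene on top of CDDP, against 12.8% of all genes tested. Among these were 329 genes that CDDP lowered and olaparib then raised, and 258 that CDDP raised and olaparib then lowered. In 433 genes (15.3%) CDDP changed the gene on top of olaparib, against 8.44% of all genes. The number over all genes, 1108, was 573 and 646 without olaparib replicates 1 and 2, and 639 and 682 without combination replicates 2 and 3. For olaparib on top of CDDP it was 1686 and fell to 1066 without combination replicate 3. The 730 and 433 genes were called on departures that contain the same differences, so their higher shares follow in part from that choice. For the 329 and 258 genes both changes also use the CDDP libraries, with opposite sign. These counts are a description only.

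The plateau is shown by MT1E, a metallothionein that binds zinc and other metals, at chr16:56625781-56627112 (RefSeq, GRCh38.p14). Its value was 166, 167 and 92.4 in the control libraries. It was 1677, 1579 and 1564 under olaparib, and 1130.1, 1140.1 and 1122 under 4 µM CDDP. Under both drugs it was 1447, 1375 and 1258, between the single-drug groups and without overlap with control. The product of the single-drug changes would have been 12803, against a mean of 1360.1. The departure was -3.28 ± 0.18 (SE, limma adjusted p = 7.39e-15) on the log2 scale. Metallothionein genes are near copies of each other, so reads could be split among them.

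Genes of mitosis departed as a group. Of 33 tested genes that act in G2 and mitosis, 30 fell short of the product and 0 exceeded it, against 11.6% and 9.92% of all genes. Their median departure was -1, against 0.01 over all genes. CDDP alone raised 29 of them and lowered 2, and olaparib alone raised 31, whereas CDDP on top of olaparib raised 2 and lowered 7. Olaparib on top of CDDP raised 0 and lowered 1, with a median of -0.02, and the departure was more positive at 4 than at 2 µM CDDP in 1 gene and more negative in 1. The median log2 change was 0.88 under CDDP, 0.98 under olaparib and 0.8 under both. CDC20, which activates the anaphase-promoting complex, had values of 267, 229.8 and 221 in control, 714, 625 and 625 under olaparib, and 595, 493 and 519 under CDDP. The combination gave 419, 452 and 452, above every control library and below every single-drug library. Its departure was -1.73 ± 0.16 (SE, adjusted p = 3.07e-09). CCNB1, the cyclin that drives entry into mitosis, averaged 967 ± 39.7 in control, 2109.7 ± 45.9 under olaparib, 1407 ± 63.2 under CDDP and 1253 ± 11.5 under both (SD, n = 3). CCNB1 thus fell when CDDP was added to olaparib, by 0.75 on the log2 scale (adjusted p = 3.11e-07). CDK1, the kinase partner of CCNB1, averaged 523 ± 93.4, 1127 ± 51.7, 1541 ± 45.4 and 1440 ± 109 in the same order (SD, n = 3). Unlike CCNB1, CDK1 rose when CDDP was added to olaparib, by 0.35 (adjusted p = 0.0256). TUBA1B, an alpha tubulin with near-identical relatives, averaged 3646 ± 228 in control and 11302 ± 594, 13839 ± 355 and 12486 ± 629.6 under olaparib, CDDP and both (SD, n = 3), with a departure of -1.78 ± 0.125 (SE).

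DNA replication genes fell short too, and olaparib lowered many of them on top of CDDP. Of 38 tested E2F and replication genes, 24 fell short of the product and 0 exceeded it, with a median departure of -0.81. CDDP alone raised 34 of the 38 by a median of 1.46. Olaparib alone raised 15 and lowered 5, with a median of 0.2. CDDP on top of olaparib raised 24 and lowered 0. Without any control library in the comparison, olaparib on top of CDDP lowered 19 of the 38 and raised 1, against 6.52% lowered and 6.32% raised among all genes. TK1, the thymidine kinase of the nucleotide salvage pathway, had values of 155, 145 and 164 in control, 427, 398 and 395 under olaparib, and 916, 848 and 882 under CDDP. The combination gave 636, 682 and 598, between both single drugs with no overlap. Its departure was -1.85 ± 0.14 (SE, adjusted p = 1.92e-11). RRM2, the small subunit of ribonucleotide reductase, fell by 0.44 when olaparib was added to CDDP (adjusted p = 0.00255), from 1631 ± 88.7 to 1199 ± 57 (SD, n = 3). PCNA, the sliding clamp of DNA polymerases, fell by 0.55 in that comparison, from 1429 ± 44.1 to 979.9 ± 75.2 (SD, n = 3, adjusted p = 0.000522).

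The promoters of one mitotic and one replication gene are shown because short sequence elements separate these lists. The cell cycle homology letters TTTGAA, searched on both strands of the 300 bases from 250 before to 50 after the start, were in 63.3% of 30 mitotic promoters, 3.23% of 31 replication promoters and 9.82% of 10301 promoters of tested genes. The E2F letters TTTNNCGC were in 10%, 61.3% and 10.7%, in the same order. These shares describe the lists, which were chosen with earlier results of these data known, and not the drugs. Among all genes that fell short of the product, TTTGAA was in 12.9% and TTTNNCGC in 13.3% of 1267 promoters. The sequences are RefSeq promoters of GRCh38.p14, written from 5′ to 3′ along the gene, with TTTGAA in CDC20 and TTTNNCGC in PCNA, on either strand, in capitals. A promoter with both motifs was counted for each.
CDC20, chr1:43358731-43359030, plus strand: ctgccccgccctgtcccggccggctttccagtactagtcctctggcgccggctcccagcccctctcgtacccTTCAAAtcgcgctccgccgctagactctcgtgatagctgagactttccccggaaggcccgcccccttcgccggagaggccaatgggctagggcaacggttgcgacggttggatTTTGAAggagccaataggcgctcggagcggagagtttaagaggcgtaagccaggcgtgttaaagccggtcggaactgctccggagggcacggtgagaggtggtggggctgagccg
PCNA, chr20:5126573-5126872, minus strand: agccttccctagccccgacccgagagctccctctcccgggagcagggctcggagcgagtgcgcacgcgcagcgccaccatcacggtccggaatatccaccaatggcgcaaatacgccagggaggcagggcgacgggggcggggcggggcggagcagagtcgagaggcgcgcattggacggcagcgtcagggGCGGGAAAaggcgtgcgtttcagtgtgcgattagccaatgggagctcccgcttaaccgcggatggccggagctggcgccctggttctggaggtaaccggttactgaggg

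Interferon-stimulated genes also stopped short. Of 33 tested, 14 fell short and 1 exceeded the product, with a median departure of -0.71. CDDP alone raised 20 and olaparib alone raised 15. CDDP on top of olaparib raised 7 and lowered 0, and olaparib on top of CDDP raised 2 and lowered 4, with a median of 0. IFIT3, an interferon-induced antiviral protein, had values of 112, 104 and 134 in control, 405, 378 and 447 under olaparib, 644, 682 and 637 under CDDP, and 542, 536 and 522 under both. The combination lay between the single drugs, and no group overlapped another. The departure of IFIT3 was -2.1 ± 0.21 (SE, adjusted p = 7.54e-09), but olaparib on top of CDDP did not pass the test (log2 change -0.29, adjusted p = 0.207). IFIT2, a relative of IFIT3, averaged 56.2 ± 2.13 in control, 274 ± 8.38 under olaparib, 352 ± 48.8 under CDDP and 405 ± 30 under both (SD, n = 3), and olaparib on top of CDDP did not pass the test for it either (log2 change 0.205, adjusted p = 0.459). ISG15, the ubiquitin-like modifier, fell by 0.42 when olaparib was added to CDDP (adjusted p = 0.0304), from 1043 ± 57.9 to 786 ± 111 (SD, n = 3). The interferon response motif, which is GAAA, a pair of any bases and GAAA again on either strand, was in 61.5% of 26 promoters of the list and 2.98% of those of all genes tested. The IFIT3 promoter is shown with both of its matches, read on the opposite strand, in capitals.
IFIT3, chr10:89327747-89328046, plus strand: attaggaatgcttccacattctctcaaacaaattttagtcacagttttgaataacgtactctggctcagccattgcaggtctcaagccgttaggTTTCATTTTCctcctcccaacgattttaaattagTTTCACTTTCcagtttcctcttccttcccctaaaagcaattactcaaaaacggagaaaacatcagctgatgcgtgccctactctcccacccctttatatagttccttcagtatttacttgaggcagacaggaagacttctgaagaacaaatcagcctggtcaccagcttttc

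Cholesterol synthesis genes had similar median changes under each treatment. Of 23 tested, 12 fell short and 1 exceeded the product, with a median departure of -0.92. The median log2 change was 0.83 under CDDP, 0.77 under olaparib and 0.83 under both, and when CDDP was added to olaparib it was 0.04. Olaparib on top of CDDP raised 3 and lowered 0, with a median of 0.03. CDDP alone raised 14 of the 23 and olaparib alone raised 16. MSMO1, a sterol oxidase of the pathway, had values of 324, 274 and 275 in control, 797, 873 and 728 under olaparib, 626, 702 and 628 under CDDP, and 804, 779.6 and 818 under both. Its departure was -1.16 ± 0.13 (SE, adjusted p = 5.39e-08). INSIG1, which retains the sterol sensor in the endoplasmic reticulum, rose by 0.44 when olaparib was added to CDDP (adjusted p = 0.00397), from 394 ± 37 to 534 ± 50.5 (SD, n = 3).

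NRF2 antioxidant genes fell short in 13 of 23 and exceeded the product in 2, with a median departure of -0.53. Olaparib alone raised 14 of them, and CDDP on top of olaparib lowered 10 and raised 0. Olaparib on top of CDDP raised 5 and lowered 3, with a median of 0.06. TXN, thioredoxin, had values of 822, 1035 and 699 in control, 2453, 2593 and 2453 under olaparib, 2303, 2486 and 2449 under CDDP, and 2459.8, 2652 and 2421 under both. The 3 treated groups of TXN overlapped, and all lay above control (departure -1.51 ± 0.155, SE). FTL, the ferritin light chain, averaged 3219 ± 321 in control, 6829 ± 376 under olaparib, 5504 ± 218 under CDDP and 6140.1 ± 563 under both (SD, n = 3). AKR1C1, a hydroxysteroid dehydrogenase with near-identical relatives, fell by 0.42 when olaparib was added to CDDP (adjusted p = 0.00815).

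The largest shortfalls among single genes were, besides MT1E, those of FAM83A, PPP1CA, ZDHHC12, KRT8, LYPD3, PIMREG, AQP3, OST4, UBE2T and TMEM14A, with departures from -3.78 to -2.2. All of these genes had been raised by each drug alone. FAM83A, a scaffold in growth factor signalling, had values of 10.9, 12.4 and 3.18 in control, 59.8, 60.6 and 56 under olaparib, 87.4, 111 and 94.5 under CDDP, and 47.7, 55.7 and 41.2 under both. The combination was below every CDDP library, and olaparib lowered FAM83A on top of CDDP by 1.01 (adjusted p = 0.0332). KRT8, an epithelial keratin, averaged 30.7 ± 11.4, 83.3 ± 7.6, 83 ± 10.4 and 43.3 ± 8.53 (SD, n = 3), and it fell when either drug was added to the other. LYPD3, a cell surface protein of keratinocytes, fell by 1.34 when olaparib was added to CDDP (adjusted p = 0.000957). In control LYPD3 had 12, 7 and 10 reads and FAM83A 12, 12 and 3. Their departures therefore depend on the pseudocount of 1 added before log2. UBE2T, the ubiquitin-conjugating enzyme of the Fanconi pathway, averaged 124 ± 59.8 in control and 467 ± 26.3, 609 ± 54.2 and 533 ± 31.8 under olaparib, CDDP and both (SD, n = 3). In all of these genes except LYPD3 and PIMREG the lowest control value was that of replicate 3, which for PPP1CA, a phosphatase catalytic subunit, was 7.51 against 32.2 and 67.9. Without that library the departure of PPP1CA was -1.74 (adjusted p = 0.0163) instead of -2.57.

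Other genes were lowered by both drugs, but by less than the product of both changes. TIMP3, an inhibitor of matrix metalloproteinases at chr22:32801705-32863041, had values of 13993, 13683 and 13531 in control. It fell to 3388, 3369.6 and 3023 under olaparib and to 1778, 1742 and 1721 under CDDP. Under both drugs it was 2024, 2054 and 2135, above every CDDP library and below every olaparib library. TIMP3 fell by 0.65 when CDDP was added to olaparib (adjusted p = 5.76e-06), while olaparib on top of CDDP did not pass the test (log2 change 0.245, adjusted p = 0.0634). The departure of TIMP3 was 2.32 ± 0.125 (SE, adjusted p = 7.39e-15). RCAN1, a calcineurin inhibitor, averaged 3066 ± 215 in control, 479 ± 50.3 under olaparib, 881 ± 54.5 under CDDP and 501 ± 10.7 under both (SD, n = 3). It fell by 0.81 when olaparib was added to CDDP (adjusted p = 3.03e-07), and CDDP on top of olaparib did not pass the test (log2 change 0.07, adjusted p = 0.738). NEAT1, the nuclear RNA that builds paraspeckles, rose by 0.745 when olaparib was added to CDDP (adjusted p = 2.27e-07), from 1298 ± 48.9 to 2180.5 ± 189 (SD, n = 3), and was 9010.4 ± 722 in control. It fell by 0.94 when CDDP was added to olaparib (adjusted p = 1.44e-09).

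Genes of the ATF4 stress response, which covers amino acid synthesis and tRNA charging, exceeded the product. Of 23 tested, 12 exceeded it and 0 fell short, with a median departure of 0.45. Olaparib alone lowered 16 and CDDP alone lowered 11. On top of olaparib, CDDP raised 7 and lowered 2, and on top of CDDP, olaparib lowered 8 and raised 1. ASNS, asparagine synthetase, had values of 2535, 2417 and 2960 in control, 659, 633 and 837 under olaparib, 1208, 1075 and 1195 under CDDP, and 832, 903 and 893 under both. The combination lay below every CDDP library and overlapped olaparib in 1 library. The departure of ASNS was 1.5 ± 0.19 (SE, adjusted p = 6.92e-07). TRIB3, a pseudokinase that feeds back on ATF4, averaged 1880.4 ± 150 in control, 629 ± 11 under olaparib, 1101 ± 26.5 under CDDP and 840.5 ± 45.1 under both (SD, n = 3). STC2, a secreted glycoprotein, rose by 0.82 when CDDP was added to olaparib (adjusted p = 0.000151) and fell by 0.52 when olaparib was added to CDDP (adjusted p = 0.00961). The letters TGATGNAA, which ATF4 binds with C/EBP partners, were in 5 of 20 promoters of the list (25%) and in 1.8% of those of all genes tested. The ASNS promoter holds 1 match, in capitals.
ASNS, chr7:97872359-97872658, minus strand: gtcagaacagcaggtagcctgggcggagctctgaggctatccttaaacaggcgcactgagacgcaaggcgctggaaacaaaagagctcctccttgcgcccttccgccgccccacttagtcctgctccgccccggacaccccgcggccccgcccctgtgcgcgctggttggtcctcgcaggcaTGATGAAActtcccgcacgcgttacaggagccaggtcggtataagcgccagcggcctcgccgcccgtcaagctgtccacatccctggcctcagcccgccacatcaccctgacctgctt

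Immediate early and MAPK feedback genes showed the same sense. Of 24 tested AP-1 and immediate early genes, 9 exceeded the product and 2 fell short (median departure 0.46). Olaparib alone lowered 14 of them, CDDP alone raised 6 and lowered 6, and CDDP on top of olaparib raised 9. At 2 µM CDDP 3 exceeded the product and 1 fell short (median departure 0.07). EGR1, an immediate early transcription factor, averaged 3095 ± 403 in control, 1399 ± 160.4 under olaparib, 1178 ± 79.5 under CDDP and 1341 ± 48.9 under both (SD, n = 3), with a departure of 1.33 ± 0.19 (SE). Of 21 MAPK feedback genes, 9 exceeded the product and 1, ETV1, fell short (median departure 0.36). Olaparib alone lowered 13, CDDP alone raised 6 and lowered 5, and CDDP on top of olaparib raised 11 and lowered 0. At 2 µM CDDP 5 exceeded the product and 1 fell short (median departure -0.05). HBEGF, a ligand of the epidermal growth factor receptor, had values of 488, 477 and 623 in control, 115, 95 and 116 under olaparib, 435, 481 and 469 under CDDP, and 218, 267 and 291 under both. CDDP alone did not pass the test for HBEGF (log2 change -0.19, adjusted p = 0.292), but on top of olaparib CDDP raised it by 1.24 (adjusted p = 2.45e-07). DUSP5, a phosphatase that inactivates ERK, fell by 0.8 under CDDP alone and rose by 0.66 on top of olaparib (adjusted p = 6.68e-07 and 0.0002). AREG, another ligand of that receptor, fell from 590.3 ± 112 to 158 ± 15.8 under olaparib and 146 ± 18.6 under CDDP and was 129 ± 12.6 under both (SD, n = 3). The EGR1 promoter is shown because it holds a pair of matches to the serum response motif, searched as CC and GG with 6 bases of any kind between them, in capitals. This loose motif is common, being in 90% of the promoters of genes tested.
EGR1, chr5:138465229-138465528, plus strand: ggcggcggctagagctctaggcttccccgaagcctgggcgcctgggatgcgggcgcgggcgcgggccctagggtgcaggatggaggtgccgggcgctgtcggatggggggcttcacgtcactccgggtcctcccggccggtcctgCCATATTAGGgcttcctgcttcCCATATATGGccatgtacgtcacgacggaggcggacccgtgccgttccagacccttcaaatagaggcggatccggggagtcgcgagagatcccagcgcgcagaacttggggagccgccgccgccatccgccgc

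In 101 of the 2827 genes (3.57%) olaparib alone lowered the gene and CDDP on top of olaparib raised it, as in HBEGF and DUSP5. In 97 genes (3.43%) both directions were the other way round. Both changes use the olaparib libraries, with opposite sign, and so does the departure. These counts are therefore a description only. GDF15, a secreted stress cytokine and p53 target, had values of 7652, 7875 and 8931 in control, 1455, 1527 and 1415 under olaparib, 4991, 5109 and 5062 under CDDP, and 2902, 3156 and 3435 under both. GDF15 fell by 0.69 under CDDP alone and rose by 1.11 when CDDP was added to olaparib (adjusted p = 3.6e-07 and 2.85e-10). INHBA, which encodes the activin A subunit, had values of 239, 288 and 217 in control, 54.2, 59.1 and 43 under olaparib, 789.9, 691 and 690.3 under CDDP, and 217, 278 and 269 under both. The combination overlapped control, while all olaparib libraries lay below and all CDDP libraries above it. Its departure was 0.72 ± 0.17 (SE, adjusted p = 0.00252) and turned to -273 on the linear scale of the values. CXCL8, a neutrophil chemokine, averaged 4193 ± 597 in control, 1497 ± 279 under olaparib, 8866 ± 1124 under CDDP and 5694 ± 1007 under both (SD, n = 3). Its departure of 0.85 ± 0.21 (SE) likewise turned to -477 on the linear scale.

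Several lists had members on both sides, and among all genes 9.92% exceeded the product and 11.6% fell short. Of 29 NF-kB targets, 5 exceeded the product (17.2%) and 4 fell short (13.8%). Their median departure of -0.1 turned to 0.01 with edgeR. CDDP raised 19 of the 29 alone and 18 on top of olaparib, and olaparib on top of CDDP lowered 9 and raised 1. Of 26 p53 targets, 7 exceeded the product (26.9%) and 4 fell short (15.4%). SUM1315 expresses mutant p53, and the part of p53 in these genes was not tested. CDKN1A, the cell cycle inhibitor p21, averaged 638 ± 28.8 in control, 1021 ± 21.9 under olaparib, 1457 ± 77.7 under CDDP and 1389 ± 42.5 under both (SD, n = 3). Its departure was -0.75 ± 0.12 (SE, adjusted p = 1.45e-05). Of 33 homologous recombination and Fanconi genes, 10 fell short (30.3%) and 2 exceeded the product (6.06%). EXO1, a nuclease that resects DNA ends, was raised by CDDP from 27 ± 10.5 to 235 ± 10 and was 148 ± 6.52 under both (SD, n = 3), a fall of 0.66 when olaparib was added to CDDP (adjusted p = 0.0301). Of 23 base excision repair and PARP genes, 5 fell short (21.7%) and 0 exceeded the product. PARP1, the main target of olaparib, had values of 1082, 1037 and 1356 in control, 1394, 1329 and 1277 under olaparib, 1888, 1766 and 1804 under CDDP, and 1534, 1506 and 1488 under both. The PARP1 transcript thus lay lower under both drugs than under CDDP in every library, by 0.27 (adjusted p = 0.0379).

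Of 25 hypoxia response genes, 4 exceeded the product (16%, against 9.92% of all genes) and 4 fell short (16%, against 11.6%). Olaparib on top of CDDP raised 8 of the 25 and lowered 2. BNIP3L, a mitophagy receptor, averaged 550.3 ± 58.8 in control, 641 ± 53 under olaparib, 346 ± 24.1 under CDDP and 631 ± 44.6 under both (SD, n = 3). Olaparib raised BNIP3L on top of CDDP by 0.865 (adjusted p = 1.74e-07), with no overlap between those groups. LDHA, lactate dehydrogenase A, fell short by -1.24 ± 0.14 (SE). Of 23 TGF-beta and activin genes, 6 exceeded the product (26.1%) and 1, SMAD3, fell short (4.35%). PMEPA1, a feedback target of TGF-beta, averaged 1919 ± 226 in control and 697 ± 21, 875 ± 30.5 and 724 ± 68.3 under olaparib, CDDP and both (SD, n = 3). Of 17 epidermal defence and alarmin genes tested out of 23, 3 exceeded the product (17.6%) and 4 fell short (23.5%). S100A9, a subunit of calprotectin, had values of 9627, 10603 and 13118 in control, 16178, 14808 and 13372 under olaparib, 4121, 4194 and 3858 under CDDP, and 10609, 8673 and 8808 under both. S100A9 fell by 1.44 under CDDP alone and by 0.66 when CDDP was added to olaparib (adjusted p = 1.74e-11 and 0.000446). KRT17, a basal keratin, exceeded the product by 1.16 ± 0.12 (SE).

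**Figure D3:**
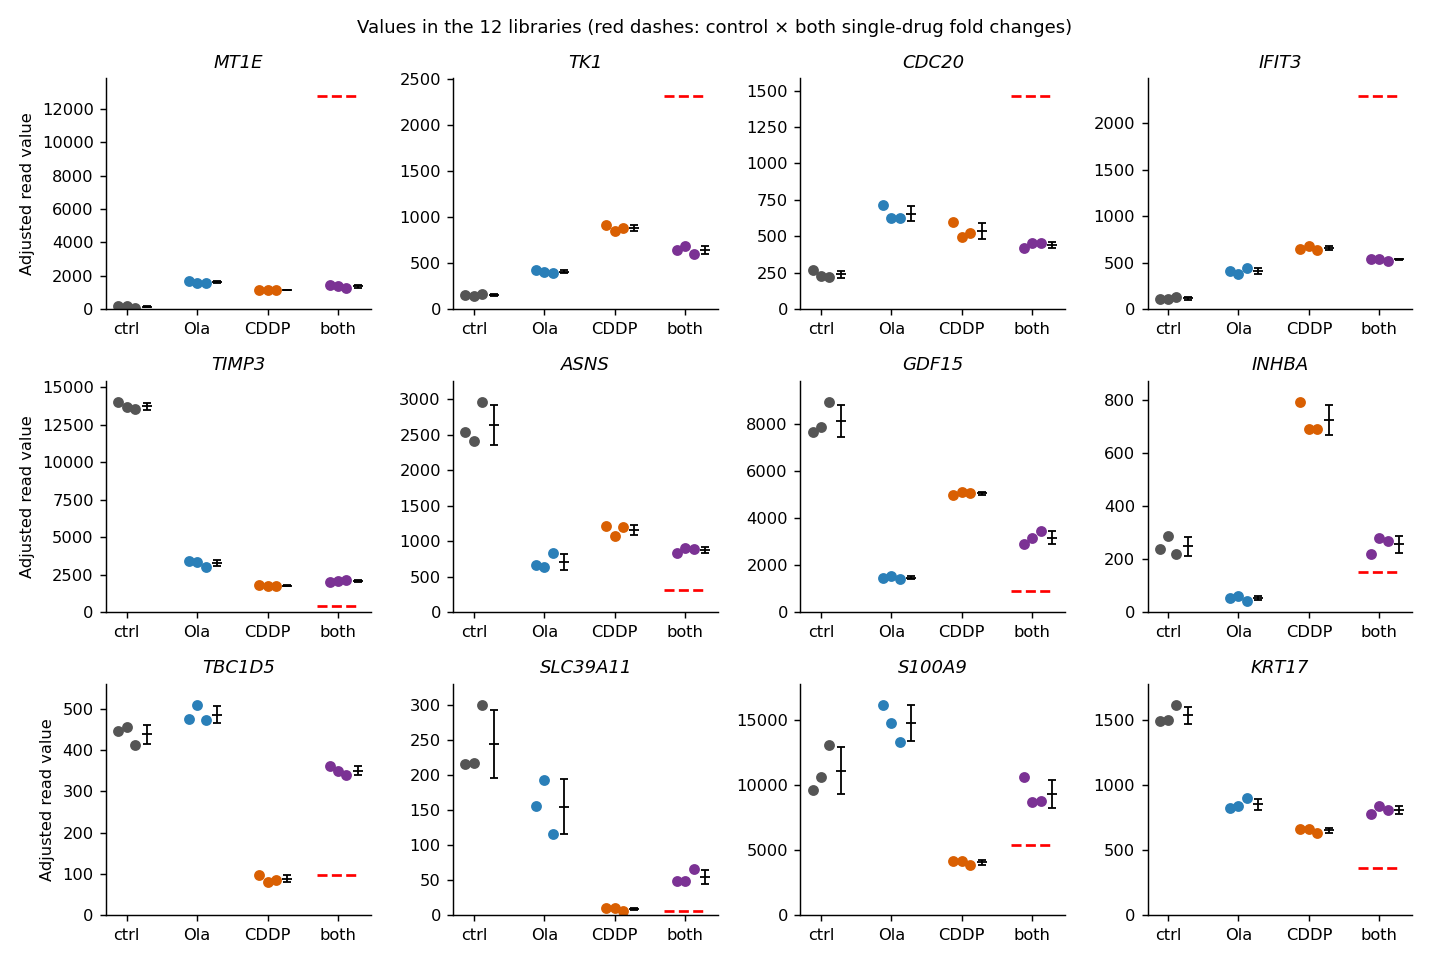
Adjusted read values of 12 genes in the 12 libraries: untreated control, olaparib, 4 µM CDDP and both. Points are libraries, black marks are mean ± SD (n = 3), and the red dashes mark the product of the single-drug fold changes; the combination lies below the dashes in MT1E, TK1, CDC20 and IFIT3 and above them in the other 8 genes.

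**Figure D4:**
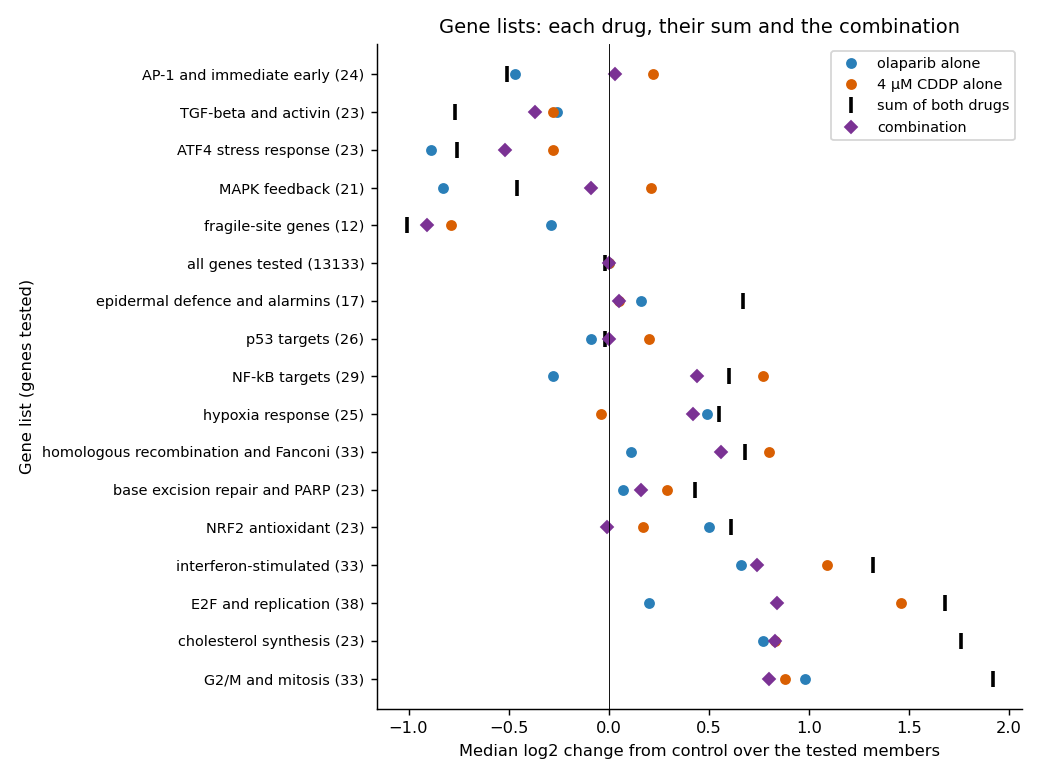
Median log2 change from control over the tested members of each gene list under olaparib, 4 µM CDDP, their sum and the combination, with the number of genes tested in brackets. The lists are ordered by their median departure; for the mitotic list the sum is 1.92 and the combination 0.8.

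The departures also went with the genomic span of the gene, from transcript start to end with introns, and a comparison without control libraries did too. Genes above the product had a median genomic span of 55.8 kb and genes below it of 17.1 kb, for 1285 and 1514 genes with a span. The table held 849 genes of 300 kb or more, and those with too few reads were not tested. Of the genes spanning 300 kb or more, 175 exceeded the product (37.4% of the class) and 3 fell short (0.641%). Of 2944 genes under 10 kb, 201 exceeded it (6.83%) and 492 fell short (16.7%). The median departure was -0.12 under 10 kb, -0.12 from 10 to 30 kb, 0.01 from 30 to 100 kb, 0.24 from 100 to 300 kb and 0.77 above that. In the longest class CDDP alone lowered 293 genes and raised 14, with a median of -0.97. Olaparib alone lowered 110 and raised 31, with a median of -0.26. When CDDP was added to olaparib, the median was -0.16, with 45 genes lowered and 12 raised. When olaparib was added to CDDP, a comparison free of control libraries, 159 rose and 9 fell, with a median of 0.48, against 6.32% and 6.52% among all genes. Long genes were also the less abundant ones, with a median value of 81 against 145 over all genes, and among the 323 long genes with a mean value of at least 30 the median departure was 0.65.

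TBC1D5, a regulator of retromer trafficking, lies at chr3:17157162-17742631 and spans 585 kb. Its values were 447, 457 and 413 in control and 475, 509 and 473 under olaparib. They were 97.5, 80.3 and 85.7 under CDDP and 361, 350.3 and 339 under both. Every library of the combination was thus above every CDDP library and below every control library. Olaparib alone did not pass the test for TBC1D5 (log2 change 0.15, adjusted p = 0.344), but on top of CDDP it raised the gene by 1.99 (adjusted p = 7.96e-14). LPP, a focal adhesion protein at chr3:188153021-188890671, averaged 894 ± 70.7 in control, 569 ± 11.2 under olaparib, 197 ± 27.1 under CDDP and 421 ± 10.8 under both (SD, n = 3). SLC39A11, a zinc transporter at chr17:72645949-73092688, had values of 215, 217 and 299 in control, 155, 193 and 115 under olaparib, 9.23, 9.18 and 6.07 under CDDP, and 48.6, 48.5 and 66.1 under both. Its departure was 3.27 ± 0.46 (SE, adjusted p = 3.21e-06), and olaparib raised it on top of CDDP by 2.6 (adjusted p = 1.15e-06).

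Of the 12 genes with the largest positive departures, 3 were nearly unread under CDDP, so no fold is given for them. PARD3B, a cell polarity gene spanning 1070 kb at chr2:204545475-205620162, had 1, 0 and 3 reads under CDDP, and values of 143, 131 and 115 in control, 50.3, 57.8 and 72 under olaparib, and 9.9, 34.5 and 25.3 under both. KCNQ1, a potassium channel, had 3, 0 and 0 reads under CDDP and 30.8, 11.9 and 11.4 as values under both. CCDC146, a coiled-coil protein, had 2, 2 and 0 reads under CDDP and 14.9, 25.3 and 20.7 as values under both. The other 9 were MAPT, SLC39A11, TRAPPC9, SEMA5A, RPS6KA2, IMMP2L, RIMS2, PWAR6 and TLN2, with departures from 2.66 to 3.37. MAPT had 3, 6 and 2 reads under CDDP and TRAPPC9 had 5, 1 and 4, so their departures depend on the pseudocount. Olaparib on top of CDDP raised all of these 9 except PWAR6 (log2 change 0.32, adjusted p = 0.698). Of 21 genes at common fragile sites, 12 were tested. IMMP2L and NBEA exceeded the product, 2 of the 12 (16.7%, against 9.92% of all genes). The median departure of the 12 was 0.19. Olaparib on top of CDDP raised 3 and lowered 0, with a median of -0.02. NBEA, a neuronal trafficking scaffold, averaged 161 ± 27.3 in control, 133 ± 4.37 under olaparib, 26 ± 10.3 under CDDP and 85.5 ± 16.6 under both (SD, n = 3).

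**Figure D5:**
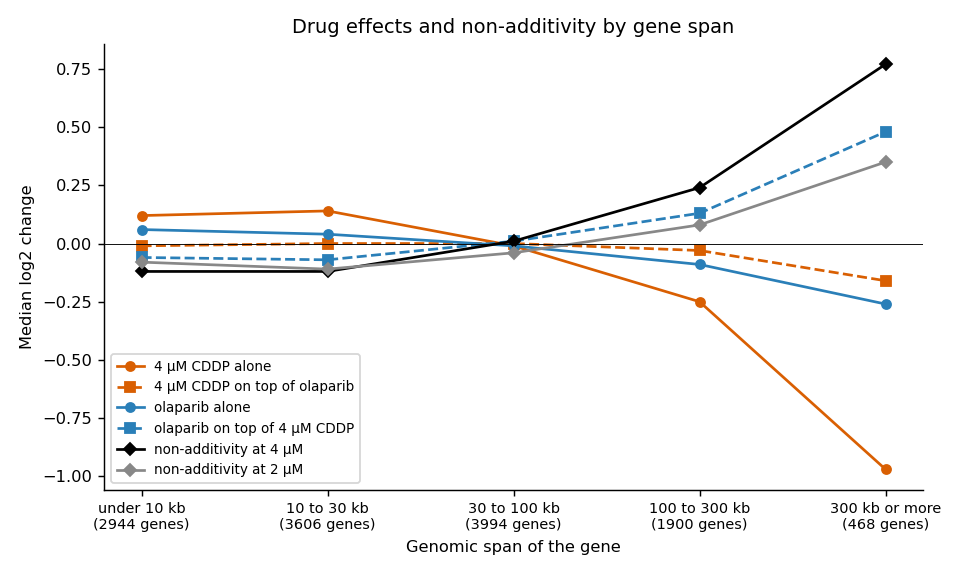
Median log2 change by genomic span of the gene in SUM1315, for each drug alone (solid lines), each drug on top of the other (dashed lines) and the departure from additivity at 4 and 2 µM CDDP (diamonds), with the number of genes per class. In genes of 300 kb or more, 4 µM CDDP alone has a median of -0.97 and the same dose on top of olaparib -0.16.

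At 2 µM CDDP, with the same control and olaparib libraries, 2944 genes departed from additivity (22.4%), 1108 above (8.44%) and 1836 below the product (14%). Of the 2827 genes called at 4 µM, 1697 were called in the same direction at 2 µM and 0 in the opposite one, and these counts share 6 libraries. The departures at both doses were then compared directly, which cancels the control and olaparib libraries. This called 310 genes (2.36%), 208 with a more positive departure at 4 µM (1.58%) and 102 with a more negative one (0.777%), but the number ran from 70 without replicate 2 of 2 µM CDDP to 914 without replicate 3 of 2 µM CDDP. Leaving out any of the other 2 µM CDDP, 4 µM CDDP or combination libraries gave 93 to 185 genes, except replicate 3 of olaparib with 2 µM CDDP. In genes of 300 kb or more, 29 had a more positive departure at 4 µM and 0 a more negative one, with a median difference of 0.4 and a median departure of 0.35 at 2 µM. TIMP3, with a departure of 1.53 at 2 µM, differed between doses by 0.795 (adjusted p = 0.00109). MT1E, with -3.33 at 2 µM, did not pass this test (difference 0.05, adjusted p = 0.924).

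In parental MDA-MB-468, given 3 µM olaparib and 2.5 µM CDDP, 1288 of 14460 genes departed from additivity (8.91%), 498 above (3.44%) and 790 below the product (5.46%). Doses differ between the lines, so a difference between them is one of line and dose together. The departure differed between lines in 1464 genes (10.1%, limma over all 54 libraries), more positive in SUM1315 in 760 (5.26%) and more negative in 704 (4.87%). Of the 23 ATF4 genes, 15 exceeded the product in MDA-MB-468 and 0 fell short. For ASNS the departure was 1.27 in MDA-MB-468 (adjusted p = 9.66e-07) and did not pass the test of a difference from SUM1315 (difference 0.23, adjusted p = 0.626). Of the 33 mitotic genes, 17 fell short in MDA-MB-468 and 0 exceeded the product. Of the 33 interferon genes, 2 fell short there and 1 exceeded the product, of the 23 cholesterol genes 1 and 1, and of the 23 NRF2 genes 2 and 4. For CDC20 the departure there was -0.49, smaller in size than in SUM1315 by a tested difference of -1.23 (adjusted p = 2.08e-05). Of the genes spanning 300 kb or more, 27 exceeded the product in MDA-MB-468 and 4 fell short. TBC1D5 differed between lines by 2.17 (adjusted p = 3.11e-08), with -0.33 in MDA-MB-468.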

How the data were processed

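Libraries were prepared for sequencing of transcript 3′ ends and, per the labels, processed with CASAVA 1.8.2, FastQC, STAR, HTSeq and edgeR on hg38. The deposited signal is a gene read count that the authors adjusted to a common library size of 5585170 reads. Whole reads were recovered for 1483380 of 1483380 values (100%, relative tolerance 1e-05). The authors' deposited tables of log2 fold changes and p-values hold their own comparisons and were not used. Of 27470 gene names, 27 had turned into dates, 2 were repeated and 4082 had no read in any library. CDDP doses follow the titles and the olaparib dose follows the study's methods, in µM, although a protocol label prints mM. The labels name RNeasy and the methods Trizol for RNA extraction.

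Genes that reached a value of 10 in 3 or more of the 27 SUM1315 libraries (parental and OlaR) were tested with limma 3.58.1 in R 4.3.3 on log2(value + 1) with an intensity trend. All 9 groups shared 1 estimate of the spread, adjustment was by Benjamini-Hochberg over all genes tested, and the threshold was 0.05. Fold changes on this scale understate those of low genes. The difference between lines was fitted over all 54 libraries. Because the values are not whole counts, edgeR 4.0.16 was run on the recovered reads as an alternative and called 2907 genes, and DESeq2 1.42.0 was another. The script was tested on simulated data. Replicate numbers did not pair the libraries: deviations correlated at -0.053 to 0.086 for same-numbered and -0.09 to 0.098 for other libraries. The 12 libraries held 5420890 to 7157852 reads, and counting error is part of the spread between them.

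Gene lists, named genes and members were chosen with earlier results of these data known. Named were the 12 genes with the largest positive and negative departures, the 4 with the smallest p in each direction, up to 4 per list by p, and up to 3 fragile-site or long genes. The largest and smallest-p genes needed an absolute departure of 1 and a mean of 30. One gene that the rule names is not reported here. Of the 92 genes named, those that carry a group's result are described. Spans and promoters came from RefSeq (GRCh38.p14), where 25194 names matched current and 1224 older symbols, 98.3% of tested genes had a span and 10301 (78.4%) a promoter of 300 bases. Of the motifs, the interferon, metal and cell cycle letters were added after the data were seen. The metal response letters TGCNCNC were in 63.2% of tested promoters and, like the NF-kB, AP-1, CRE and TATA letters, are not described further.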

Additional observations from a re-analysis of the deposited data

Results flagged for a closer look

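The departure from additivity differed between 4 and 2 µM CDDP in 310 genes, by the test of that difference. Of the 92 named genes, 20 passed it. Leaving out genes with a group in which every library had at most 3 reads, 6 differed by at least 1 on the log2 scale. MAPT, with 3, 6 and 2 reads under 4 µM CDDP, lies close to that limit, so its departure at 4 µM depends on the pseudocount. All 6 had a more positive departure at 4 µM. The difference was 2.36 in SLC39A11 (adjusted p = 0.00879), 1.73 in MAPT (0.0364), 1.59 in TLN2 (0.0177), 1.34 in RPS6KA2 (0.027), 1.26 in TBC1D5 (9.9e-05) and 1.23 in SEMA5A (0.0145), from limma over all genes. The count rests on single libraries, as the report states.

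The departure differed between SUM1315 and MDA-MB-468 in 1464 genes, with drug doses that differ too. Of the named genes 56 passed this test. Genes with at most 3 reads in every library of a group of either line were left out. Of the rest, 11 differed by at least 2. TRAPPC9, with 5, 1 and 4 reads under 4 µM CDDP, also lies close to the limit. It was more positive in SUM1315 by 3.87 in MAPT (adjusted p = 1.05e-06), 3.65 in SLC39A11 (9.55e-07), 2.93 in TRAPPC9 (0.00213), 2.62 in RPS6KA2 (1.07e-06), 2.36 in TLN2 (9.34e-05) and 2.17 in TBC1D5 (3.11e-08). In these 6 the departure in MDA-MB-468 ran from -0.5 to 0.3. In the other 5 the difference was -2 in LYPD3 (0.000621), -2.34 in ETV1 (7.83e-07), -2.48 in EXO1 (1.53e-06), -2.74 in IFIT2 (0.000127) and -4.02 in FAM83A (0.00095). In control SUM1315, FAM83A had only 12, 12 and 3 reads and LYPD3 12, 7 and 10. ETV1, a transcription factor in the MAPK feedback list, exceeded the product in MDA-MB-468 by 1.46 (adjusted p = 8.48e-06) and fell short of it in SUM1315 by -0.88. Groups of 3 libraries are too small for a test of single outlying libraries.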

How the results depend on the processing

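The 2827 departures at 4 µM numbered 2551 to 3116 under 10 alternatives of tool, scaling, pseudocount, filter or libraries, and 2295 to 2942 without single replicates, with 0 genes called in the opposite direction in any. edgeR shared 2743 calls and DESeq2 2772. Without a filter the median departure of all genes shifted from 0.01 to 0.11. With an absolute log2 change of at least 1, 1060 genes passed at 4 µM, 1130 at 2 µM, 82 for the dose difference, 2022 for CDDP, 1228 for olaparib, 173 for CDDP on top of olaparib, 336 for olaparib on top of CDDP, 1493 for the combination and 727 between lines, with 411 plateau genes and 84 instead of 190 listed genes. The dose difference had 623 genes with DESeq2 and 133 without a filter. The median departure of genes of 300 kb or more, 0.77, became 0.81 and 0.66 with pseudocounts of 0.5 and 5, 0.7 with a filter of at least 30 in 3 libraries and 0.65 for genes with a mean of at least 30. Without single replicates the dose difference ran from 70 to 914 genes, the long-gene median from 0.74 to 0.82, and olaparib on top of CDDP from 1066 (combination replicate 3) to 1266. Plateau genes, 1535 in the main test, numbered 1087 without control replicate 3 and 1355 to 1592 without any other single replicate. CDDP on top of olaparib, 1108 genes, ran from 573 to 1144, with 573 and 646 without olaparib replicates 1 and 2 and 639 and 682 without combination replicates 2 and 3. On the linear scale CXCL8 turned to -476.97 and INHBA to -273.29. PARP2, NEIL3 and SMAD3 lost their call in 12 comparisons in all, and 2101 comparisons of named genes did not change the call or direction. With the replicate number as a block, 2774 genes departed at 4 µM, 2947 at 2 µM and 354 between doses. The numbers do not pair the libraries, and the block moved no count by over 1.5 times. Causes of these changes were not tested. At 5420890 to 7157852 reads a library, genes with at most 3 reads in a group allow no fold.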
